A study of Mus musculus with 14 samples.

Results

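The alcohol and aldehyde dehydrogenases described here are 10 genes of mouse liver, Adh1, Adh4, Adh5, Adh7, Aldh2, Aldh1b1, Aldh1a1, Aldh1a7, Aldh1l1 and Aldh3a2. They were chosen by name, and each was found through the RefSeq accession of its array probe, among 19751 genes with a probe that could be named in this way. Total liver RNA came from male (M) and female (F) CD-1 mice that were 3, 4 or 8 wk old, which gives the groups M3, F3, M4, F4, M8 and F8. Each pool combined the RNA of 5 mice (3 wk) or 6 mice (4 and 8 wk), so that differences between single mice were not measured. Male was set against female at each age (M3/F3, M4/F4 and M8/F8), and 8 wk against each younger age in male (M8/M3 and M8/M4) and in female (F8/F3 and F8/F4). In each of these 7 comparisons a pool labelled with a red dye competed with a pool labelled with a green dye on an Agilent mouse array, and another array carried separate pools with the dyes exchanged. Values are log2 ratios, positive where the group named first was higher, and the intensities given as levels are in arbitrary units that are not compared between genes.

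Alcohol dehydrogenases oxidize alcohols to aldehydes, and aldehyde dehydrogenases oxidize aldehydes to carboxylic acids. In liver both families handle ethanol, retinoids, formaldehyde and lipid aldehydes. The classes differ in substrate and in compartment, with Aldh2 and Aldh1b1 in mitochondria, Aldh1a1 and Aldh1l1 in the cytosol and Aldh3a2 in the endoplasmic reticulum.

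The 4 Adh genes lie in a single cluster on chromosome 3, in the order Adh7, Adh1, Adh4 and Adh5, with Adh6a and Adh6b between Adh1 and Adh4. Aldh1a1 and Aldh1a7 are next to each other on chromosome 19. A RefSeq promoter window (build GRCm38.p6, different from the mm9 build named in the array headers) was held for 9 of the 10 genes, all but Aldh2. The stretches below are the 120 bases before the start site of the neighbours Aldh1a1 and Aldh1a7, which are nearly alike there, and of Adh5 and Adh1, which differ although they share a cluster. For Aldh1a1 and Adh5 the more downstream of the listed starts was taken. Capitals mark matches to 5 motifs searched on both strands, namely the GC box GGGCGG, the TATA box TATAAA, the CCAAT box, the E-box CACGTG and the octamer ATGCAAAT. The windows were chr19:20601848-20601967 on the plus strand for Aldh1a1, chr19:20727557-20727676 on the minus strand for Aldh1a7, chr3:138442973-138443092 on the plus strand for Adh5 and chr3:138277465-138277584 on the plus strand for Adh1.
Aldh1a1: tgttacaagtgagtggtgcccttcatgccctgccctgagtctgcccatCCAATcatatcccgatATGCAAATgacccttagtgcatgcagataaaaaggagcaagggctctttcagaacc
Aldh1a7: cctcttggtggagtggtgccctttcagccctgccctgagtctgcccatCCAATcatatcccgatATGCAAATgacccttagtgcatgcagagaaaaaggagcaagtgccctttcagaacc
Adh5: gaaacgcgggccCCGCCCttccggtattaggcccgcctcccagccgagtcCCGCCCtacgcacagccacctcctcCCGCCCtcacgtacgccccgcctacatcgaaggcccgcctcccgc
Adh1: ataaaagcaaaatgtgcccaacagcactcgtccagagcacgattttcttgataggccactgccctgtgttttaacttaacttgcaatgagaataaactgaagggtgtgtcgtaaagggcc

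Aldh1a1 and Aldh1a7 had the same base at 94 of the last 100 positions before the start. That likeness holds for the printed start, and at the other listed start of Aldh1a1 30 of 100 bases were the same and none of the 5 motifs was matched. Before the printed starts both genes held CCAAT and ATGCAAAT at the same distance from the start. Adh5 held 3 matches to GGGCGG, each as its reverse complement CCGCCC, while its other listed start had 0 matches to GGGCGG and 1 to TATAAA. In the 250 bases before the start, Adh1 matched none of the 5 motifs, and Adh4 matched CCAAT only. GGGCGG was also present upstream of Aldh1b1, Aldh1l1 and Aldh3a2, and CACGTG upstream of Aldh3a2 alone among these genes. Among 32851 promoter windows of the same length, the GC box was found in 32.7%, the CCAAT box in 33.8%, the TATA box in 12.4%, the E-box in 6.0% and the octamer in 1.6%. A match is a description of the letters and not of binding.

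Each of the 10 genes had 1 probe, and every probe was well above background in both channels on 14 of 14 arrays. A gene was called where limma gave an adjusted p below 0.05 and the ratio was past 1.5-fold in either direction, in a group well above background on both arrays. Xist was lower and Ddx3y higher in the male pool on all 6 arrays that compared the sexes. The 6 hepatocyte markers were all bright enough to be tested in each comparison. So were the 6 Kupffer cell markers, and passing this filter is no check of the tissue label. Mitosis genes were called lower at 8 wk in all 4 comparisons of ages (16 of 16 tested), as were erythroid markers (4 of 5 tested). The fifth erythroid marker, Alas2, was called higher in M8/M3 (log2 ratio 1.37, adjusted p = 0.00229), M8/M4 (0.98, adjusted p = 0.00823), M4/F4 (0.78, adjusted p = 0.0199) and M8/F8 (1.89, adjusted p = 0.000725) and was not called with age in female. All 6 Kupffer cell markers were lower in M8/F8 with an adjusted p below 0.05 (log2 ratios from -1.05 for Marco to -0.54 for Cd5l), and 4 of them were called. With age, every marker called on the lists for Kupffer, sinusoidal endothelial, stellate, bile duct, B and T cells was lower at 8 wk. In M8/M3 these were 2 of 6 Kupffer (Marco at -2.20, Adgre1 at -0.86), 1 of 5 sinusoidal endothelial (Lyve1 at -1.2), 1 of 5 stellate (Reln at -0.67), 2 of 5 bile duct (Krt7 at -0.91, Krt19 at -0.66) and 1 of 3 T cell markers (Cd3g at -0.75). In female liver from 3 wk they were Marco (-1.58), Lyve1 (-0.94) and the bile duct marker Sox9 (-1.04). The T cell list was split. Cd3e was not called but was higher at 8 wk in M8/M3 (0.43, adjusted p = 0.00139), M8/M4 (0.26, adjusted p = 0.00969) and F8/F3 (0.21, adjusted p = 0.0217). Cd3d was lower in these comparisons (-0.51, -0.48 and -0.22), also without a call. In such bulk tissue fewer cells of a type and less RNA per cell cannot be told apart, and the part of these shifts in the dehydrogenase values was not tested.

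Of 70 pairs of gene and comparison 9 were called, with folds of 1.5 to 1.87, and 6 of the 10 genes were called at least once. No member was called between the sexes before 8 wk. In M3/F3 the count was 0 of 10, where 0.517% of all tested genes were called, and 0 members had an unadjusted p below 0.05 (11.8% of all genes). In M4/F4 it was 0 of 10 beside a background of 1.58%, with 4 members at an unadjusted p below 0.05 (21.1% of all genes). In M8/F8 2 of 10 were called, both lower in male, beside 6.4% of all genes called and 3.74% called lower. In M8/M3 2 of 10 were called (1 higher, 1 lower) beside 17.8% (7.81% higher, 10% lower), and in M8/M4 2 of 10 (1 higher, 1 lower) beside 10.8% (4.44% higher, 6.38% lower). In F8/F3 3 of 10 were called (2 higher, 1 lower) beside 11.7% (5.08% higher, 6.64% lower). In F8/F4 limma called 0 of 10 beside 6%, and 6 members had an unadjusted p below 0.05, as did 39.3% of all genes. An error-weighted average called 0 in M3/F3, M4/F4, M8/M3 and F8/F4, 1 in M8/F8, and 2 each in M8/M4 and F8/F3. The share of all genes called under that rule is not given, so these counts have no background. With 10 genes, counts of 2 or 3 are too small to be set apart from the limma backgrounds, and nothing particular to the list was read from them. The median log2 ratio of the 10 genes with age was, in male liver, 0.26 from 3 wk and 0.07 from 4 wk, and that of female liver was 0.28 and 0.16, beside 0.01 to 0.02 for all tested genes. Between male and female it was 0.08, -0.06 and -0.11 at 3, 4 and 8 wk, beside 0.00 at each age for all tested genes.

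**Figure D1:**
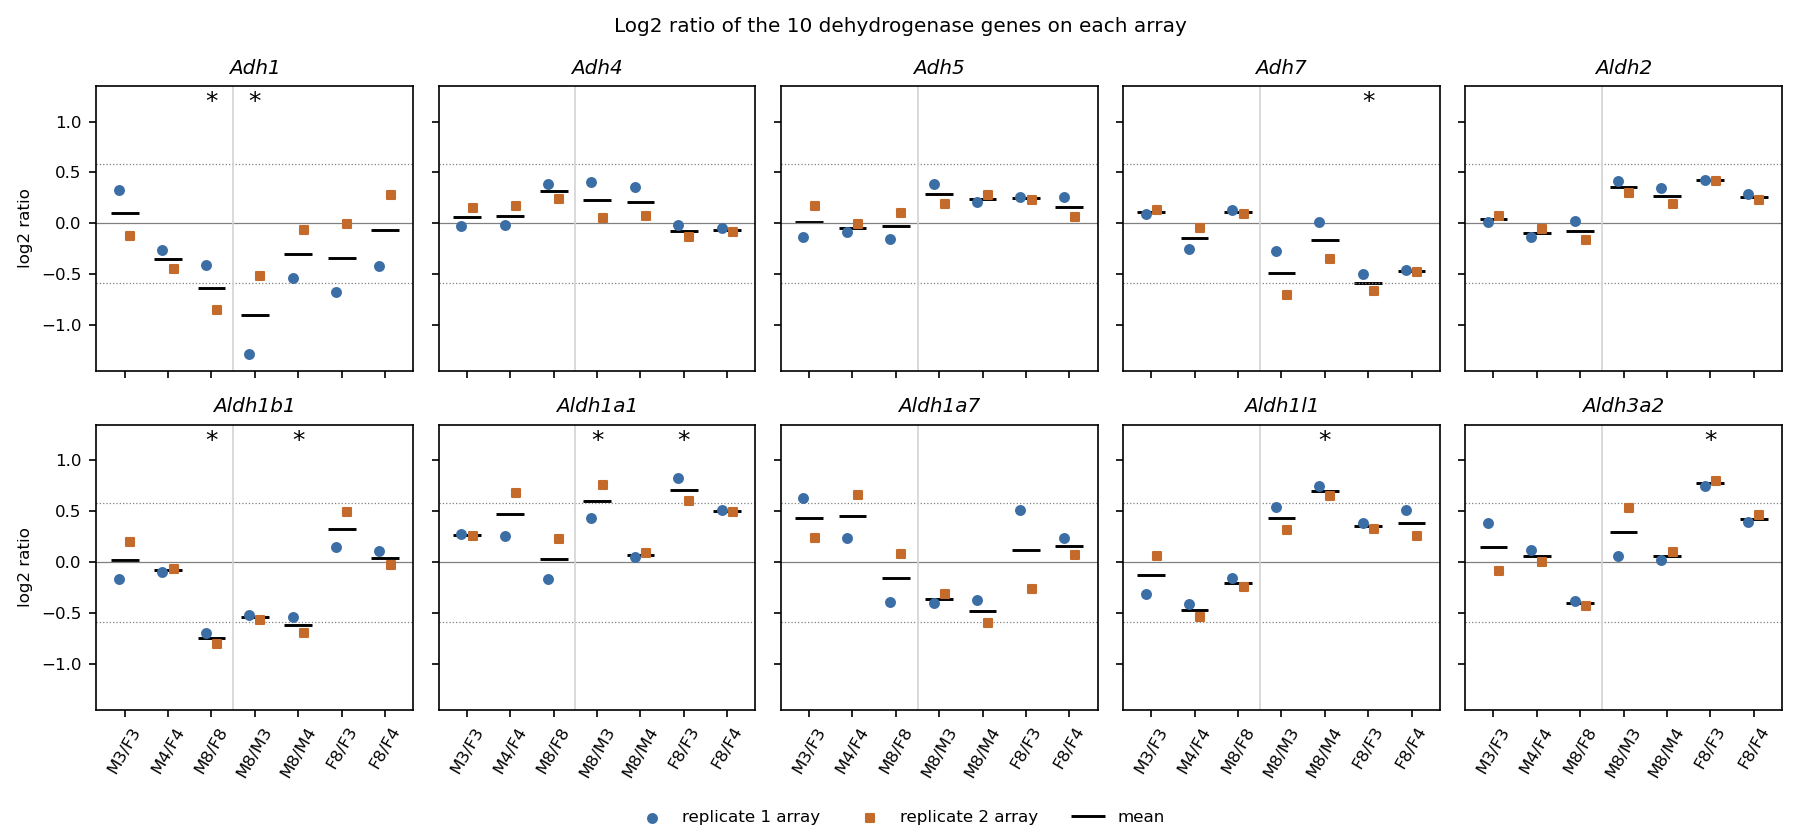
Log2 ratio of each gene (panels) in the 7 comparisons, with a circle for the replicate 1 array, a square for the replicate 2 array and a line for their mean. Dotted lines mark 1.5-fold in either direction and asterisks mark the 9 calls. Aldh1b1 was below 0 on both arrays of M8/F8, M8/M3 and M8/M4, and the Adh1 arrays of M8/M3 lie 0.77 apart.

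Adh1 encodes the class I enzyme, the main ethanol-oxidizing alcohol dehydrogenase of liver, and it was lowest in adult male liver. Its level in M8 was 78100 and 91150 in the 2 pools, against 100100 and 126600 in F8 and 127100 and 140800 in M3. The M8 pools lay below the pools of every other group. The remaining pools were at 103800 and 111600 in M4, 114300 and 127500 in F4 and 117800 and 127500 in F3, and in the order M3, F3, F4, F8, M4 each group overlapped the next. These levels carry no dye term, and each M3, M4 and F8 pool was in a single dye on all its arrays. Adh1 also read higher in red (see the pairs of arrays below). Dye and pool therefore cannot be told apart in its pool ranges and overlaps. In M8/M3 the arrays gave log2 ratios of -1.29 and -0.52, with a mean of -0.90 (SE 0.10, adjusted p = 0.00159). In M8/F8 they gave -0.41 and -0.86, with a mean of -0.63 (SE 0.10, adjusted p = 0.00604). Both calls were of lower Adh1 in M8, and each rested on arrays that agreed in sign but not in size. In F8/F3 the arrays gave -0.68 and -0.01 (mean -0.34, adjusted p = 0.0587), so that the female change with age did not pass the test. In M4/F4 the values were -0.26 and -0.45 (mean -0.35, adjusted p = 0.0527). On all 7 pairs of arrays the one with the first-named group in red gave the higher Adh1 ratio, by 0.19 to 0.77. Without a dye term neither Adh1 call was made (adjusted p = 0.204 in M8/F8 and 0.0752 in M8/M3), while the log2 ratios stayed at -0.63 and -0.90. In 27 alternatives each, the adjusted p ran from 0.000276 to 0.204 and from 3.3e-05 to 0.0752. The M8/F8 call was also lost without M8/F8 replicate 1, where the ratio was -0.59. With normexp background correction it was lost as well, with a ratio (-0.57) short of the fold threshold. The error-weighted average made neither call. In M8/M3 the hepatocyte markers Alb (log2 ratio -0.71) and Ahsg (-1.25), which encode plasma proteins, were called lower too. The other 4 of the 6 markers were not called, with Cps1 at -0.41 (adjusted p = 0.00837), Ttr at -0.23, Apoa1 at 0.16 and Tat at 0.33, the last past the adjusted p threshold in the opposite direction. In M8/F8, where Adh1 and Aldh1b1 were called lower, Ahsg was called lower too (-0.79, adjusted p = 0.000842), and Alb (-0.57, adjusted p = 0.013), Cps1 (-0.52, adjusted p = 0.00351) and Tat (-0.41) passed the adjusted p in the same direction but not the fold, while Ttr (0.01) and Apoa1 (0.40, adjusted p = 0.056) did not pass it. In M8/M4, where Aldh1b1 was called lower, Alb (-0.68) and Ahsg (-1.07) were called lower too. Ttr was at -0.33, and Cps1 (0.02), Apoa1 (0.21) and Tat (0.19) were above 0, none of them called. In F8/F3, where Adh7 was called lower, only Ahsg (-0.70) was called. Alb (-0.25), Ttr (-0.16), Apoa1 (-0.38) and Cps1 (-0.04) were below 0 and Tat (0.49) above it. The part of these marker values in the calls was not tested.

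Adh4, the class II enzyme, was called in no comparison. Its largest log2 ratio was in M8/F8, where the arrays gave 0.39 and 0.24 (mean 0.31, SE 0.08, adjusted p = 0.0459), below the fold threshold. The M8 pools, at 22270 and 25880, lay above those of the other 5 groups, which ranged from 19220 to 21910. Adh4 was thus highest and its cluster neighbour Adh1 lowest in the same group, M8. Over the 14 arrays the log2 ratios of Adh1 and Adh4 had a Pearson r of -0.65, as a description of arrays that share pools and dyes.

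Adh5, the glutathione-dependent formaldehyde dehydrogenase of class III, varied least, with group levels spanning 1.22-fold. Its pools lay between 535 and 614 at 3 wk and between 637 and 701 at 8 wk. The 8 wk pools were above all younger pools in both sexes. In M8/M3 the arrays gave 0.39 and 0.19 (mean 0.29, SE 0.07, adjusted p = 0.0296), and in F8/F3 they gave 0.26 and 0.23 (mean 0.25, adjusted p = 0.0523). Between the sexes its mean log2 ratio was 0.02, -0.05 and -0.02 at 3, 4 and 8 wk, and the 95% interval at 8 wk ran from -0.18 to 0.13.

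Adh7, the class IV enzyme known for retinol oxidation in stomach and other epithelia, fell with age in female liver. Its levels were 291 and 320 in F3, 271 and 282 in F4, and 201 and 206 in F8. The pools of the 3 female groups did not overlap. In male they were 317 and 325 in M3, 237 and 252 in M4, and 203 and 238 in M8, and those of M4 and M8 overlapped. In F8/F3 the arrays gave -0.50 and -0.67 (mean -0.59, SE 0.08, adjusted p = 0.00531), which is just past the fold threshold, and the call was lost in 4 of 28 alternatives. The ratio was short of that threshold without F8/F3 replicate 1 (-0.58), with normexp (-0.57), with 6 group means (-0.56) and in the error-weighted average (-0.58). The male values in M8/M3 were -0.28 and -0.71 (mean -0.49, adjusted p = 0.0104), short of the same threshold, and past it without M8/M3 replicate 1 (-0.64). The male and female values were not distinguished from each other (difference 0.09, 95% interval -0.19 to 0.38).

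Aldh2, the mitochondrial enzyme that clears acetaldehyde, was higher at 8 wk in both sexes by less than 1.5-fold. The M8/M3 arrays gave 0.42 and 0.30 and the F8/F3 arrays 0.42 and 0.42. From 4 wk the M8/M4 arrays gave 0.34 and 0.19 and the F8/F4 arrays 0.29 and 0.23. All 8 values were positive. The means were 0.36 (adjusted p = 0.00692), 0.42 (adjusted p = 0.00373), 0.27 (adjusted p = 0.0217) and 0.26 (adjusted p = 0.0241), and at any fold 42%, 33.6%, 29.6% and 21.3% of all genes passed that p in M8/M3, F8/F3, M8/M4 and F8/F4. Between the sexes no adjusted p for Aldh2 was below 0.354. The adult levels were 35850 and 40830 in M8 and 38560 and 40780 in F8, and these pools overlapped. The pools of the 4 younger groups lay between 29500 and 34900, all below the 8 wk pools.

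Aldh1b1, a mitochondrial relative of Aldh2, had the widest span of the 10 genes, 1.70-fold, and a sex difference at 8 wk. Its levels were 3938 and 4047 in M8 against 6489 and 7080 in F8. The M8 pools lay below every pool of the other 5 groups, the lowest of which was an F3 pool at 4731. Pools of F4 (6541 and 6796) overlapped those of F8, those of M4 (5965 and 6518) reached just into the F8 range, and those of M3 were at 5403 and 5883. In M8/F8 the arrays gave -0.69 and -0.80 (mean -0.75, SE 0.11, adjusted p = 0.00497), a level 1.68-fold higher in female. At 3 and 4 wk the mean M over F log2 ratio was 0.02 and -0.08, with array values from -0.16 to 0.20. With age the gene fell in male liver. The M8/M4 arrays gave -0.54 and -0.70 (mean -0.62, SE 0.11, adjusted p = 0.0104). The M8/M3 arrays gave -0.52 and -0.57 (mean -0.54, adjusted p = 0.0172), short of the fold threshold. In female liver the F8/F3 arrays gave 0.15 and 0.50 and the F8/F4 arrays 0.11 and -0.03, and neither mean passed the test. The M8/F8 call was lost without M8/F8 replicate 2, where the log2 ratio was -0.66. The M8/M4 call was lost without either array of that comparison. Its log2 ratio was -0.69 without replicate 1 and -0.55, short of the fold threshold, without replicate 2.

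**Figure D2:**
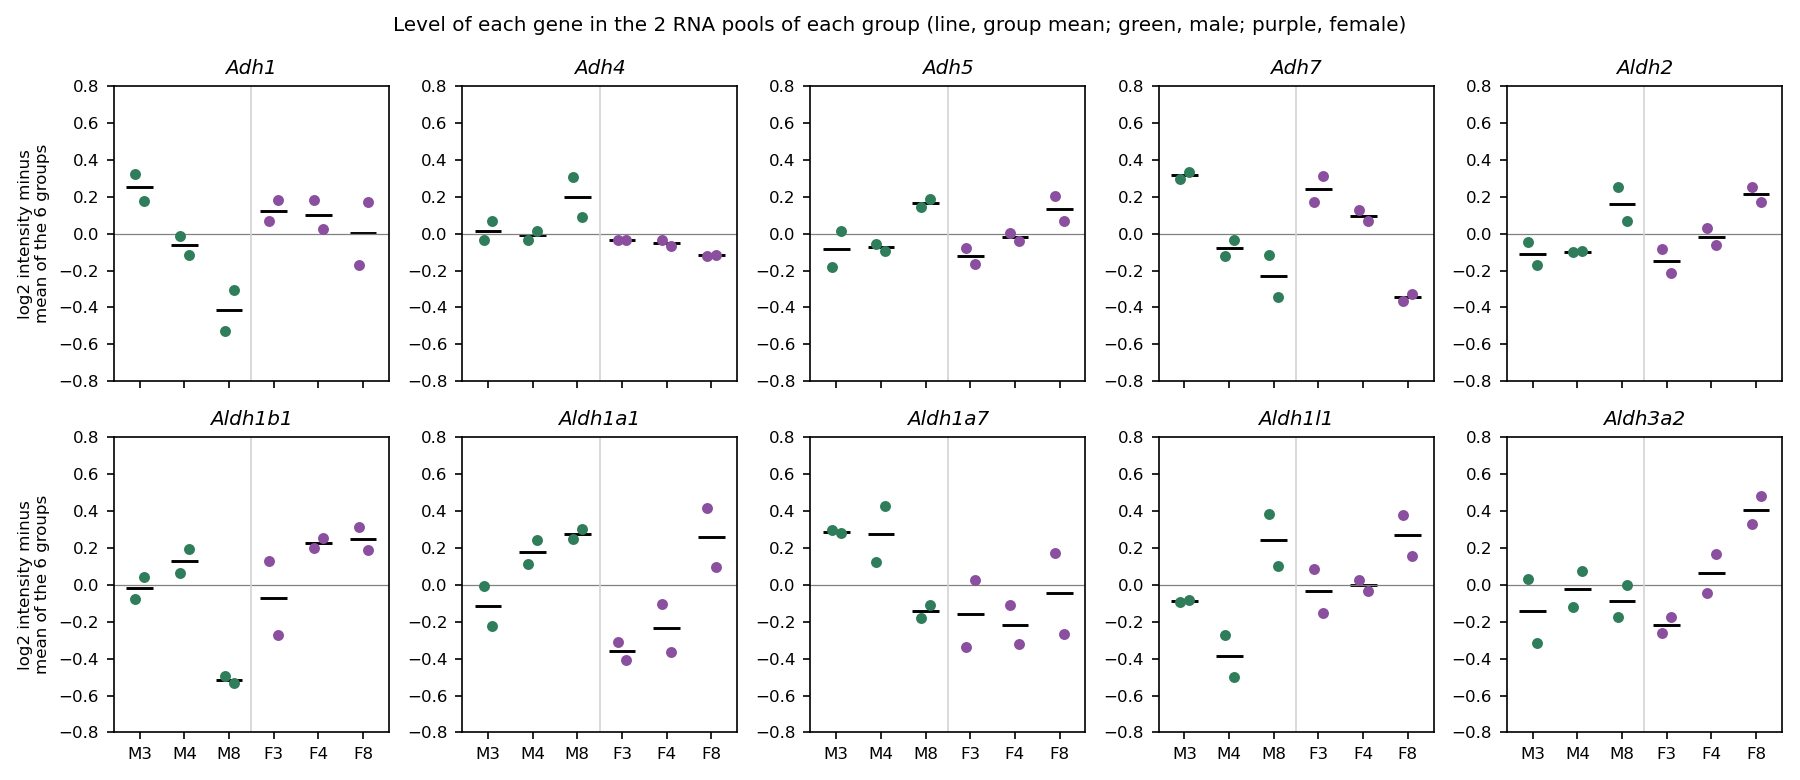
Level of each gene in the 2 pools of each group, as log2 intensity minus the mean of the 6 groups (points, pools; line, group mean; green, male; purple, female). Aldh1b1 and Adh1 were lowest in M8, Aldh3a2 was highest in F8, and Aldh2 and Adh5 were higher at 8 wk than before in both sexes.

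Aldh1a1, a cytosolic retinal dehydrogenase, rose with age from 3 wk in both sexes. Its levels were 53940 and 62690 in M3 and 74820 and 77870 in M8. In female they were 47520 and 50930 in F3 and 67500 and 84220 in F8. The 8 wk pools were above the 3 wk pools in each sex. At 4 wk the M4 pools, at 68300 and 74540, were above the F4 pools, at 49080 and 58630. In M8/M3 the arrays gave 0.44 and 0.76 (mean 0.60, SE 0.13, adjusted p = 0.0221), and in F8/F3 0.83 and 0.60 (mean 0.71, SE 0.13, adjusted p = 0.0115). From 4 wk the male arrays gave 0.05 and 0.09, while the female arrays gave 0.51 and 0.49 (mean 0.50, adjusted p = 0.0426), under 1.5-fold. The difference between the sexes in the change from 4 wk was -0.43 (adjusted p = 0.369). At 4 wk the M/F arrays gave 0.26 and 0.68 (mean 0.47, adjusted p = 0.0522), and at 8 wk -0.17 and 0.22. The M8/M3 call was lost in 4 of 28 alternatives. Without M8/M3 replicate 2 the log2 ratio was 0.35 (adjusted p = 0.205, the highest of 27 alternatives from 0.00246), it was short of the fold threshold with normexp (0.53) and with 6 group means (0.57), and the error-weighted average (0.59, unadjusted p = 0.000234) missed its own threshold. The F8/F3 call was lost without either F8/F3 array. The log2 ratio was then 0.64 without replicate 1 and 0.79 without replicate 2, both still past 1.5-fold.

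Aldh1a7, the neighbour and close relative of Aldh1a1, gave no call and had the largest SE of the 10 genes, 0.18. Its pools ran from 23870 in F3 to 40520 in M4, and each group overlapped the next in the order of levels. The F8/F3 arrays gave 0.51 and -0.27, with opposite signs. The M8/M3 arrays gave -0.40 and -0.31 and the M8/M4 arrays -0.37 and -0.59 (mean -0.48, adjusted p = 0.142). All 4 male values were below 0, where those of Aldh1a1 were above 0. In M4/F4 the arrays gave 0.24 and 0.66 (mean 0.45, adjusted p = 0.168). With this SE none of its 7 ratios, all under 1.5-fold, passed the test. Whether the probes of Aldh1a1 and Aldh1a7 also bind each other's RNA was not tested, since probe sequences were not used here.

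Aldh1l1, the cytosolic 10-formyltetrahydrofolate dehydrogenase that ties folate to carbon dioxide release, rose in male liver from 4 wk. Its levels were 50380 and 59070 in M4 and 76450 and 93070 in M8. M4 was the lowest group, with both pools below those of every other group. From 3 wk the M8/M3 arrays gave 0.55 and 0.32 (mean 0.43, adjusted p = 0.0193), short of the fold threshold. In M8/M4 the arrays gave 0.74 and 0.66 (mean 0.70, SE 0.09, adjusted p = 0.00302), and the call was made in 28 of 28 alternatives, many of which could not move its ratio. In M4/F4 they gave -0.41 and -0.54 (mean -0.47, adjusted p = 0.0137), short of the fold threshold, where 7.9% of all genes had an adjusted p below 0.05, and it was called without M4/F4 replicate 1 (log2 ratio -0.61, adjusted p = 0.0238, the range of adjusted p over all alternatives being 0.00102 to 0.137). The female change from 4 wk was 0.51 and 0.26 on the arrays (mean 0.38, adjusted p = 0.03), and the male and female changes were not distinguished (difference 0.32, adjusted p = 0.335).

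Aldh3a2, the fatty aldehyde dehydrogenase whose human counterpart is defective in Sjögren-Larsson syndrome, rose with age in female liver. Its levels were 1316 and 1398 in F3, 1530 and 1769 in F4, and 1980 and 2197 in F8. Both F8 pools lay above every pool of the other 5 groups, and the male pools of all ages lay between 1267 and 1662. The F8/F3 arrays gave 0.75 and 0.80 (mean 0.78, SE 0.09, adjusted p = 0.0026), and the call was made in 28 of 28 alternatives, many of which could not move its ratio. In F8/F4 they gave 0.39 and 0.46 (mean 0.43, adjusted p = 0.0257), short of the fold threshold. In male liver the M8/M3 arrays gave 0.06 and 0.53 (mean 0.30, adjusted p = 0.0863), and those of M8/M4 0.02 and 0.10. As for Adh1, the array with the first-named group in red gave the higher Aldh3a2 ratio in all 7 pairs, by 0.05 to 0.47, and the gap was 0.47 for the M8/M3 arrays and 0.05 for those of F8/F3. Dye and pool cannot be told apart in its pool levels either. In M8/F8 the values were -0.38 and -0.43 (mean -0.40, adjusted p = 0.0311), a lower level in male that was short of the fold threshold, where 21.8% of all genes had an adjusted p below 0.05.

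The difference between the sexes in the change with age was tested as such. For the change from 3 to 8 wk, 1 of 10 genes was called, Aldh1b1, beside 3.35% of all tested genes and 1.74% in its direction. Its M8/M3 minus F8/F3 value was -0.66 for the replicate 1 arrays and -1.06 for replicate 2 (mean -0.86, SE 0.15, adjusted p = 0.0282). Both M8/M3 arrays were below 0 and both F8/F3 arrays above 0. The call was lost in 10 of 27 alternatives, with adjusted p from 0.000413 to 0.132, among them the fit with a slide term and the fits without either M8/M3 array, without F8/F3 replicate 2, or without either array of M4/F4, M8/M4 and F8/F4. In 7 of these 10, the slide term and the arrays of M4/F4, M8/M4 and F8/F4, the value stayed at -0.86 and the adjusted p alone moved. The M8/M3 and F8/F3 arrays were scanned on different days, while M8/F8 and M3/F3 were scanned on the same day. The same contrast from M8/F8 minus M3/F3 was -0.53 and -1.0 (mean -0.77). It draws on pools taken as the same and is not an independent measure.

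For the change from 4 to 8 wk limma called 0 of 10, beside 1.31%, with 7 members at an unadjusted p below 0.05 (17.6% of all genes). The members were chosen with earlier results known, so that no test was made of this count. For Aldh1b1 the difference was -0.66 (adjusted p = 0.109), and through the sex comparisons, on pools taken as the same but all scanned on the other day, it was -0.67. Adh1 had a difference of -0.56 from 3 wk (adjusted p = 0.0757), and Aldh3a2 one of -0.48 (adjusted p = 0.109). Aldh2 and Adh5 were close to equal in both sexes, with differences from 3 wk of -0.06 (95% interval -0.25 to 0.12) and 0.04 (-0.18 to 0.26).

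**Figure D3:**
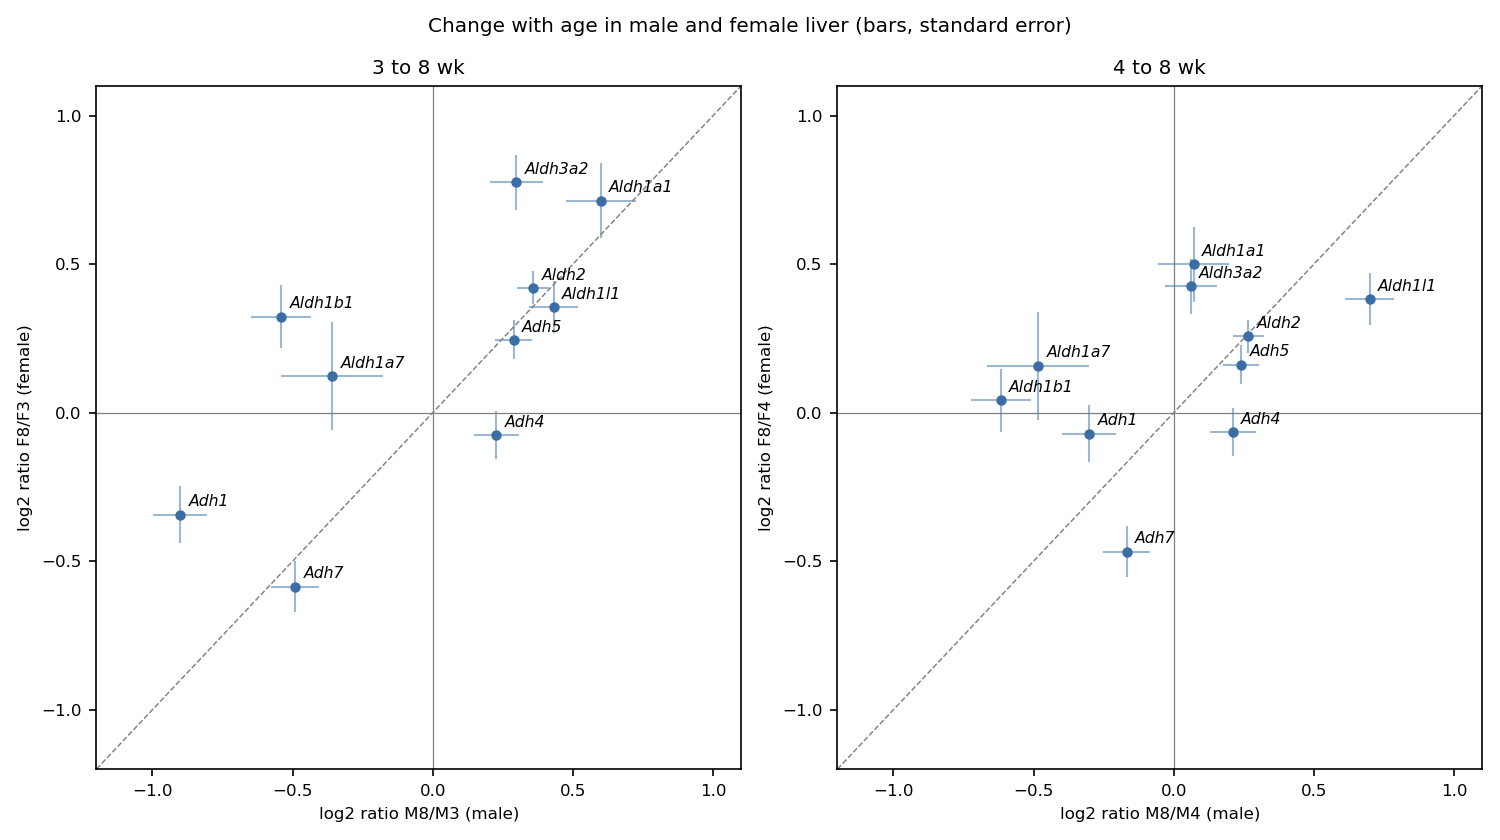
Mean log2 ratio of each gene with age in male (horizontal) and in female (vertical), from 3 to 8 wk on the left and from 4 to 8 wk on the right, with standard errors as bars and the line of equal change dashed. Aldh1b1 was at -0.54 in male and 0.32 in female from 3 wk, while Aldh2 and Adh5 lay near the line.

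Of 18 other alcohol and aldehyde dehydrogenases listed, 15 had a probe, and Adh6a was never bright enough to be tested. The only ones called in any of the 7 comparisons were Aldh1a3, Aldh9a1 and Aldh6a1. Aldh1a3, another retinal dehydrogenase, fell with age in both sexes, with a log2 ratio of -1.15 in M8/M3 (adjusted p = 0.000764), -1.52 in F8/F3 (adjusted p = 0.000301) and -0.72 in F8/F4 (adjusted p = 0.00434). It was also lower in M3 than in F3, at -0.64 (adjusted p = 0.00692). Its direction with age was opposite to that of Aldh1a1. Aldh9a1, which oxidizes aminoaldehydes, rose in F8/F3 (0.69, adjusted p = 0.00743), and Aldh6a1, the methylmalonate semialdehyde dehydrogenase of valine breakdown, rose in M8/M3 (0.63, adjusted p = 0.00287). None of the others was called by limma in the 7 comparisons.

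**Figure D4:**
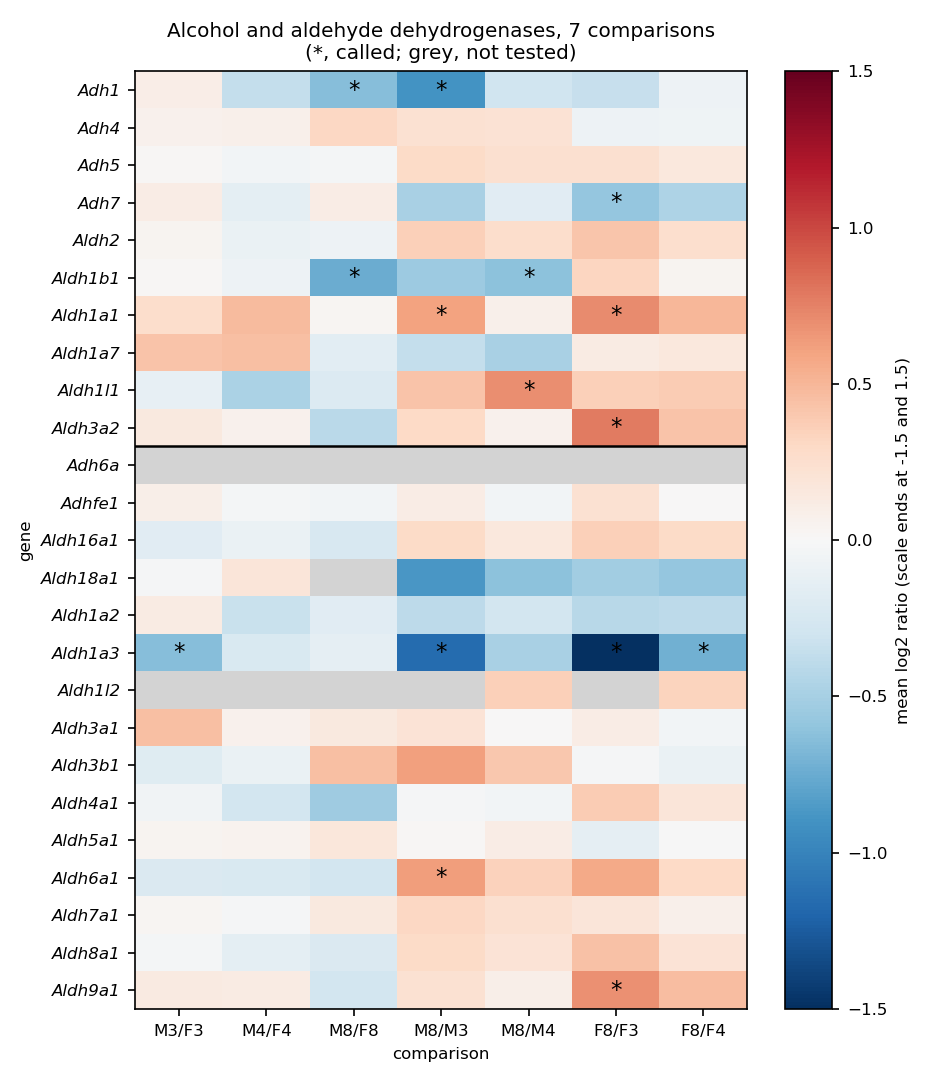
Mean log2 ratio of the 10 genes (above the line) and of the 15 other family members with a probe (below it) in the 7 comparisons, in red where the group named first was higher and in blue where it was lower. Asterisks mark calls and grey marks genes too dim to be tested. Aldh1a3 was the deepest in blue, at -1.52 in F8/F3.

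The pathways around these enzymes were described by counts from fixed lists, beside the shares of all tested genes called higher and lower given above for M8/M3, M8/M4 and F8/F3. In M8/F8 these shares were 2.65% and 3.74%, and in F8/F4 2.28% and 3.72%. The lists are short, and nothing particular to any of them was read from its counts. Of 5 genes of ethanol and acetate metabolism, 2 rose and 2 fell in M8/M3, 1 rose and 1 fell in M8/M4, 1 rose in F8/F3 and 1 was lower in M8/F8. Catalase (Cat), a peroxisomal enzyme that can oxidize ethanol, rose in M8/M3 (0.68, adjusted p = 0.00172). Cyp2e1, the ethanol-inducible cytochrome, rose in M8/M4 (0.67, adjusted p = 0.00282). Acss3, which activates short fatty acids such as propionate and acetate, was lower in M8 than in F8 (-1.49, adjusted p = 0.000671).

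Of 20 genes of folate and one-carbon metabolism, 4 rose and 3 fell in F8/F3 (all genes, 5.08% and 6.64%), 1 rose and 3 fell in M8/M3 (7.81% and 10%), 3 fell in F8/F4, 1 fell in M8/M4 and 1 was higher in M8/F8. The mitochondrial folate enzymes Mthfd2 (-2.22, adjusted p = 0.0015) and Mthfd1l (-1.17, adjusted p = 0.000536) fell in F8/F3, where Aldh1l1 stood at 0.35 (adjusted p = 0.0394). Of 12 retinoid genes, 3 rose and 1 fell in F8/F3, 1 rose and 1 fell in F8/F4, 3 fell in M8/M3, 1 fell in M8/M4 and 2 were lower in M8/F8. Rdh16, a retinol dehydrogenase, rose in F8/F3 (1.44, adjusted p = 0.00402), as did the retinoic acid hydroxylase Cyp26b1 (1.74, adjusted p = 0.0383). Of 9 genes with a probe for fatty aldehyde and ether lipid metabolism, 2 rose and 1 fell in M8/M3, 1 rose and 1 fell in M8/M4, 1 rose in F8/F3 and 1 was lower in M8/F8. None of these 4 lists had a gene called in M3/F3 or M4/F4. Hacl1, the 2-hydroxyacyl-CoA lyase of phytanic acid breakdown, fell in M8/M3 (-1.08, adjusted p = 0.000368), while the sphingosine kinase Sphk2 (1.06, adjusted p = 0.00163) and the phytanoyl-CoA hydroxylase Phyh (0.86, adjusted p = 0.00271) rose.

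The 10 genes did not move as a block. Over the 14 arrays the Pearson r between 2 members ran from -0.81 (Adh7 and Aldh3a2) to 0.85 (Aldh2 and Aldh1l1), with 24 of 45 pairs above 0. These arrays share pools, dyes and slides, so the values are descriptions. Among 12305 genes well above background in both groups on all 14 arrays, those most like Aldh1b1 were Cyp2b9 (r = 0.96), Asah1 (0.96) and Asb2 (0.96). For Aldh3a2 they were Tm4sf4 (0.96), Ttpa (0.95) and Cyp2c54 (0.95), and for Adh1 they were Habp2 (0.92), Apcs (0.91) and Sfi1 (0.91). Cyp2b9, a cytochrome P450 of female liver, had a log2 ratio of -4.55 in M8/F8, so that its likeness to Aldh1b1 was one of pattern and not of size.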

How the data were processed

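Liver RNA pools of CD-1 mice were compared on 14 2-colour arrays, 2 per comparison with the dyes exchanged. The authors scanned them and ran Agilent's Feature Extraction software (version 10.7.1.1 per the file headers). The deposited scanner output holds spot intensity and, after the software's background subtraction and dye normalization, the log10 ratio of red over green. The deposited series table holds the same log10 values (largest difference 0).

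Ratios were converted to log2 and turned by the dyes in the labels. The study's methods give the opposite dyes for an array of M3/F3, and the sex-linked genes went with the labels. Differences were tested in R 4.3.3 with limma 3.58.1 (a coefficient per comparison and a dye term, all 14 arrays), with Benjamini-Hochberg adjustment over all probes and comparisons, or within each interaction. Calls needed an adjusted p below 0.05, a change past 1.5-fold and a group that both arrays measured well above background, and used the probe of highest mean signal. Intensity levels are the processed signals after quantile normalization of the average intensity between arrays. They carry no dye term, so that the spread between the pools of a group can include a dye effect. Pools were taken as shared between comparisons by replicate number, since the deviations of same-numbered arrays correlated (r = 0.88 in each of the 3 wk and 4 wk loops, 21650 probes). The number of arrays limits the precision, and p-values measure the spread between pools and arrays. The main fit took the 14 arrays as independent, although each pool, taken as shared, was on 2 or 3 arrays. Its p-values do not account for this sharing. The pool variance was estimated at 4.15 times the array variance. Calls in M8/F8, M8/M3 and M8/M4 rest on the same 2 M8 pools.

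All 10 members were named, with up to 6 other family members and up to 3 genes of each other list by size among those called, and the 3 genes most like each of the 3 members with the largest called ratios. The members and lists were chosen with earlier results of these data known. Lists were described by counts without a set test. Some listed genes are not reported here by name. Alternatives covered background correction, dye, slide and replicate terms, filters, thresholds, error-weighted averaging with the deposited errors (unadjusted p below 1e-04) and each array left out. Each member had 1 probe of 1 spot, well above background on all 14 arrays. Alternatives that change only spots, probes or brightness filters could therefore not move its ratio. Leaving out an array of another comparison did not move it either.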

Additional observations from a re-analysis of the deposited data

Results flagged for a closer look

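Aldh1b1 was flagged because its change with age differed between the sexes by a test of the difference itself. The M8/M3 log2 ratio minus the F8/F3 log2 ratio was -0.86 (SE 0.15, limma adjusted p = 0.0282), with the male arrays at -0.52 and -0.57 and the female arrays at 0.15 and 0.50. The call was lost in 10 of 27 alternatives (adjusted p up to 0.132), in 7 of which the value stayed at -0.86. Cell type markers and mitosis genes also moved with age, and their part in this difference was not tested.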

How the results depend on the processing

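Counts within the 7 comparisons moved most with the fold threshold, and the count of interactions with 6 group means. Counts over a pair of comparisons are of gene and comparison, so that a gene may count in both. Without the fold threshold the adjusted p alone gave 1 in M3/F3 and M4/F4, 4 in M8/F8, 10 in M8/M3 and M8/M4 (7 different genes) and 10 in F8/F3 and F8/F4 (5 different genes), against 0, 2, 4 and 3. At that p alone 7.9% of all genes passed in M4/F4 and 21.8% in M8/F8, in male with age 42% from 3 wk and 29.6% from 4 wk, and in female 33.6% and 21.3%. With normexp background correction and loess there was 1 in M8/F8 and 3 interactions against 1, with no dye term 1 in M8/F8, with 6 group means 4 interactions, with a slide term 0 interactions, and with error-weighted averaging 1 in M8/F8 and 2 in male with age. The error-weighted average was not run for interactions. Apart from the fit without the fold threshold, no share of all genes is given for the alternatives. Their counts therefore cannot be judged against a background. With a replicate block beside the dye term, the counts were 0, 2, 4, 3 and 1, as in the main fit. That block is a single shift between replicate 1 and replicate 2 arrays and does not model the shared pools. The shared pools in the covariance and a fit on bright probes only were alternatives chosen after seeing the data. In each of these, 90 gene results kept their sign and call. Leaving out each array in turn gave 0 to 1 gene in M3/F3 and M4/F4, 1 to 2 in M8/F8, 3 to 5 in male with age, 1 to 3 in female with age and 0 to 1 interactions. Of the called log2 ratios, none changed sign in any alternative. Uncalled ones near 0 did. With normexp these were Adh5 in M3/F3 (-9e-04), Adh1 in F8/F4 (0.0309), Aldh1l1 in M8/M3 minus F8/F3 (-0.0243) and Aldh2 in M8/M4 minus F8/F4 (-0.006). With 6 group means they were Adh5 in M3/F3 (-0.0031) and in M8/F8 (0.0033). Over the fits that each left out an array, the log2 ratio ran, in M3/F3 Adh5 -0.0823 to 0.11, Aldh1b1 -0.17 to 0.21, Aldh1l1 -0.28 to 0.0221, Aldh3a2 -0.0157 to 0.32, in M8/F8 Adh5 -0.0884 to 0.0391, Adh7 -0.0086 to 0.24, Aldh2 -0.21 to 0.0603, Aldh1a1 -0.14 to 0.20, in M8/M4 Aldh1a1 -0.01 to 0.15, Aldh3a2 -0.0025 to 0.12, in F8/F3 Aldh1a7 -0.20 to 0.45, in F8/F4 Adh1 -0.17 to 0.0282, Aldh1b1 -0.0132 to 0.0963, in M8/M3 minus F8/F3 Adh5 -0.0226 to 0.11, Adh7 -0.0567 to 0.25, Aldh1a1 -0.36 to 0.13, in M8/M4 minus F8/F4 Adh5 -0.0458 to 0.20, Aldh2 -0.0597 to 0.0749. Calls were lost with error-weighted averaging for Adh1 in M8/F8 and M8/M3, Aldh1a1 in M8/M3 and Adh7 in F8/F3, with normexp for Adh1 in M8/F8, Aldh1a1 in M8/M3 and Adh7 in F8/F3, and with 6 group means for the latter pair. Interactions gained were Adh1 from 3 wk and Aldh1b1 from 4 wk under normexp and group means, and Aldh1a7 from 4 wk under group means. The cause was not tested. With 2 arrays per comparison, their number limits the precision.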
